A study of Myzus persicae with 4 samples.

Results

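A set of 80 contigs was higher on nicotine diet than on control diet in every replicate of an array study of heads of the aphid Myzus persicae. A contig is an assembled transcript sequence, and the array carried 10295 of them. The 80 were chosen on their measured ratios. On 4 two-colour arrays, the deposited log2 ratios were read as nicotine over control and arrays 1 and 3 were averaged to replicate 1. A contig was kept when all 4 arrays flagged its nicotine signal as well above background and its ratio was above 0.585 (1.5-fold) in each of 3 replicates. Of the 7017 contigs detected in that way, 80 or 1.14% were kept, through 96 probes, and each contig is described by the kept probe with the higher nicotine level. The contrast that chose them is the one described, so the ratios below carry no test.

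The aphids had been moved from cabbage to a liquid diet that held sucrose with 20 amino acids, and heads were taken after 24 h of feeding with 250 µM nicotine or with none. Each array held RNA of both diets. By the titles, arrays 1 and 3 were hybridised with replicate 1, array 2 with replicate 2 and array 4 with replicate 3. The dye on nicotine RNA was Alexa Fluor 555 in replicate 1 but Alexa Fluor 647 in replicates 2 and 3, so the set holds only contigs raised in both dye orientations. The labels name neither a clone nor the number of heads pooled, and the series title calls the animals tobacco aphids.

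Nicotine, the main alkaloid of tobacco, opens nicotinic acetylcholine receptors, the chief excitatory receptors of the insect central nervous system, and overstimulates nerve cells. Insects that feed on tobacco limit it by oxidation, in which cytochrome P450 enzymes take part, by conjugation and by excretion. An aphid head holds the brain, the eyes and antennae, the mouthparts and the muscles that pump sap. The files pair no contig with a gene name or a sequence, so which of these functions the 80 contigs belong to was not analysed here. The head label could not be checked against marker genes for the same reason.

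In bulk heads a change in the share of a cell type and a change in RNA per cell cannot be told apart. The nicotine channel was well above background for 73.7% (array 2) to 88.0% of the probes and the control channel for 77.5% to 79.7%. No spot was saturated. A moderated test in limma with a nicotine and a dye coefficient, fitted to 12503 probes, called 0 probes (0%) at the threshold of 0.05, the lowest Benjamini-Hochberg value being 0.307. The fit left 1 residual degree of freedom, so 0 called probes do not show an absence of change. Before adjustment 1996 probes were under 0.05, 1022 of them with nicotine higher. The description of array 4 can also be read as making it the repeat of array 1, and with that pairing 1752 probes were called. That pairing counts arrays 1 and 3 as separate samples. Over the detected contigs these 2 arrays differed by a median of 0.06, where the SD between replicates had a median of 0.29. The 80 contigs are therefore a set with a common direction and a minimum size over 3 replicates, with no call behind them under the pairing of the titles.

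The mean log2 ratio of the 80 contigs ran from 0.67 to 2.94, with a median of 1.15, where the median over all detected contigs was -0.03. The mean reached 1, or 2-fold, for 50 of the 80 and reached 2 for 3. The median ratio of the set was 1.18, 0.86 and 1.09 in replicates 1, 2 and 3. The 80 were smallest in replicate 2, where their lower quartile of 0.70 lay close to the limit.

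**Figure D1:**
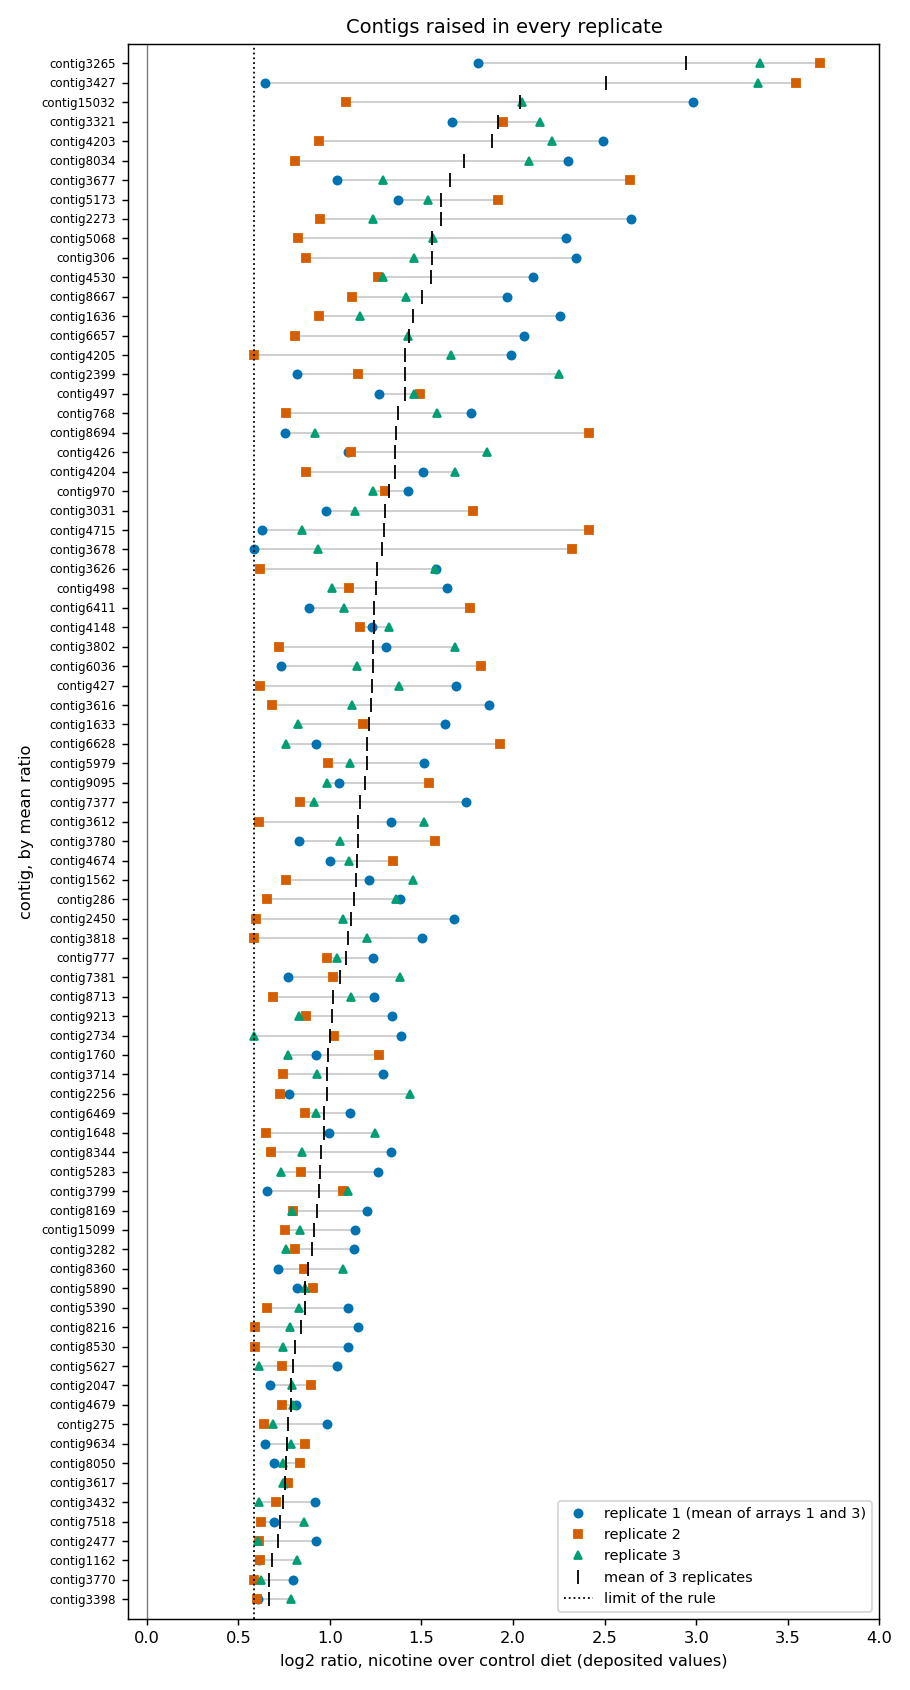
Log2 ratio of nicotine over control diet (x axis) for each of the 80 contigs (y axis, ordered by mean), with a symbol for each of 3 replicates, a tick for their mean and a dotted line at the limit of 0.585. The contigs run from contig3265 with a mean of 2.94 to contig3398 with a mean of 0.67, and many contigs spread more between replicates than they lie above the limit.

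Contig3265 had the highest mean. Its log2 ratios in replicates 1, 2 and 3 were 1.81, 3.68 and 3.35, a mean of 2.94 ± 1.00 (SD, n = 3). Its level on nicotine diet, on the log2 scale of normalised spot signal, was 13.33, 14.53 and 10.72 in replicates 1, 2 and 3, against 11.52, 10.85 and 7.46 on control diet. Replicate 3 was thus the dimmest on both diets, and there the control channel was not well above background, so 3 of the 4 arrays measured contig3265 on control diet. The means of contig3265, contig3427, contig15032 and contig3321 all include replicates whose control signal was not well above background. The other probe of contig3265 was kept as well, at 1.67, 3.23 and 2.46.

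Contig3427 was second, with ratios of 0.64, 3.55 and 3.34 and a mean of 2.51 ± 1.62 (SD, n = 3). It had the widest spread of the 80 and entered by a narrow margin in replicate 1. Its nicotine level was 13.98, 16.18 and 11.57 in replicates 1, 2 and 3 and its control level was 13.33, 12.62 and 8.26, the last of these not well above background. The small ratio of replicate 1 thus came with the highest control level, while the nicotine level was highest in replicate 2. Its other probe lay at 0.02, 2.60 and 3.01, so the 2 probes parted over replicate 1.

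Contig15032 had ratios of 2.98, 1.09 and 2.05, a mean of 2.04 ± 0.95 (SD, n = 3), but its control channel was well above background on only 2 of the 4 arrays, those of replicate 1. Contig3321 lay at 1.67, 1.94 and 2.15, with a mean of 1.92 ± 0.24 (SD, n = 3), and its control channel was well above background on 3 arrays, all but that of replicate 3. Its other probe gave 1.54, 2.14 and 1.98.

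For the next 6 contigs all 4 arrays also gave a control signal well above background, so both diets were measured. Contig4203 lay at 2.49, 0.94 and 2.21 with a mean of 1.88 ± 0.83 (SD, n = 3), and contig8034 at 2.30, 0.81 and 2.08 with a mean of 1.73 ± 0.80 (SD, n = 3). Both had their smallest ratio in replicate 2, as had contig2273 at 2.64, 0.94 and 1.23 and contig5068 at 2.29, 0.83 and 1.56. Contig3677 showed the opposite order, with 1.04 and 1.29 in replicates 1 and 3 and 2.64 in replicate 2. Contig5173 was more even, at 1.37, 1.92 and 1.53, with a mean of 1.61 ± 0.28 (SD, n = 3) or 3.05-fold.

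**Figure D2:**
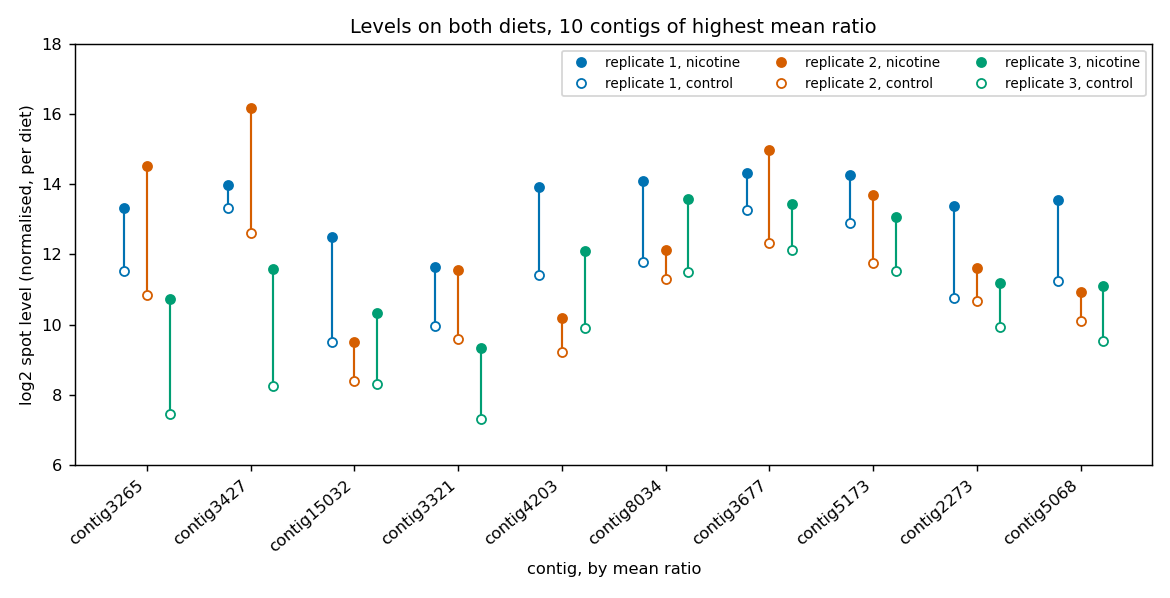
Log2 spot level after normalisation (y axis) on nicotine diet (filled) and control diet (open) in each of 3 replicates, for the 10 contigs of highest mean ratio (x axis). The length of each line is the difference of these levels, which lay within 0.12 of the deposited log2 ratio; contig3265 in replicate 2 runs from 10.85 to 14.53, and levels compare only within a contig, since each probe has its own brightness.

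Only 13 of the 80 contigs were above 1 in all 3 replicates, and of these 2 were above 1.5, contig3265 and contig3321. The other 11, named after their values were seen, were contig15032, contig3677, contig5173, contig4530, contig8667, contig497, contig426, contig970, contig498, contig4148 and contig4674. Among them contig4148 lay at 1.23, 1.16 and 1.32, a mean of 1.24 ± 0.08 (SD, n = 3), and contig970 at 1.43, 1.30 and 1.24, a mean of 1.32 ± 0.10 (SD, n = 3). These 2 differed between replicates by less than 0.2 on the log2 scale while more than 2-fold higher on nicotine diet.

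The 4 contigs with the least spread were small in size, while contig4148 and contig970, next in spread, had means of 1.24 and 1.32. Contig3617 lay at 0.76, 0.77 and 0.74 in replicates 1, 2 and 3, with a mean of 0.76 ± 0.014 (SD, n = 3) or 1.69-fold. Contig5890 lay at 0.82, 0.91 and 0.86 and contig8050 at 0.70, 0.84 and 0.75. Contig4679 gave 0.81, 0.74 and 0.80, but the first of these is the mean of 0.52 on array 1 and 1.11 on array 3, 2 arrays of the same replicate. That gap of 0.58 was the widest between repeated arrays in the set, where the median gap was 0.06.

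Replicates differed more than repeated arrays did. Arrays 1 and 3 share their dye orientation while the replicates span both, so a dye effect on a probe would widen only the spread between replicates. The SD between replicates had a median of 0.34 over the 80 contigs and exceeded the gap between arrays 1 and 3 for 72 of them (90%). Among all detected contigs that share was 93.1%, and their median SD was 0.29. A range under 0.25 between replicates was found for 14 contigs, under 0.5 for 28 and under 1 for 58.

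The 4 contigs whose spots were brightest on nicotine diet were contig4679, contig4674, contig2256 and contig1162, which gives no order of transcript amounts, since each probe has its own brightness. Contig4674 lay at 1.00, 1.34 and 1.11 (mean 1.15 ± 0.17, SD, n = 3), with levels of 18.49, 17.75 and 17.54 on nicotine diet and 17.51, 16.42 and 16.46 on control diet. The nicotine level was above the control level of every replicate in that contig. Contig2256 lay at 0.78, 0.73 and 1.44 and contig1162 at 0.61, 0.62 and 0.82. In these bright spots the ratio on arrays 1 and 3 was 0.82 and 1.18 for contig4674 and 0.78 on both for contig2256. For contig1162 it was 0.73 and 0.49, on either side of the limit.

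The limit itself fell among contigs of many sizes. Just inside it were contig2734, with ratios of 1.39, 1.02 and 0.585, contig4205 with 1.99, 0.59 and 1.66, and contig3770 with 0.80, 0.59 and 0.62. Just outside it were contig2365 with 1.63, 0.58 and 1.16, contig7666 with 0.94, 2.06 and 0.58, and contig182 with 0.58, 0.69 and 1.24. The means of the first 3, from 0.67 to 1.41, overlap those of the last 3, from 0.83 to 1.19.

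Replicate 2 admitted the fewest contigs. Above the limit were 1258 detected contigs in replicate 1, 1146 in replicate 3 and 433 in replicate 2. Replicates 1 and 3 shared 701, replicates 1 and 2 shared 137 and replicates 2 and 3 shared 135. Of the 701, 621 were not in the set, since no probe of theirs passed in replicate 2 as well as in both others. The same limit in the other direction was passed in every replicate by 117 contigs (1.67% of those detected), with a median mean ratio of -0.99. Detection was asked of the nicotine channel here too, so contigs lowered to background on nicotine diet are left out of the 117.

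**Figure D3:**
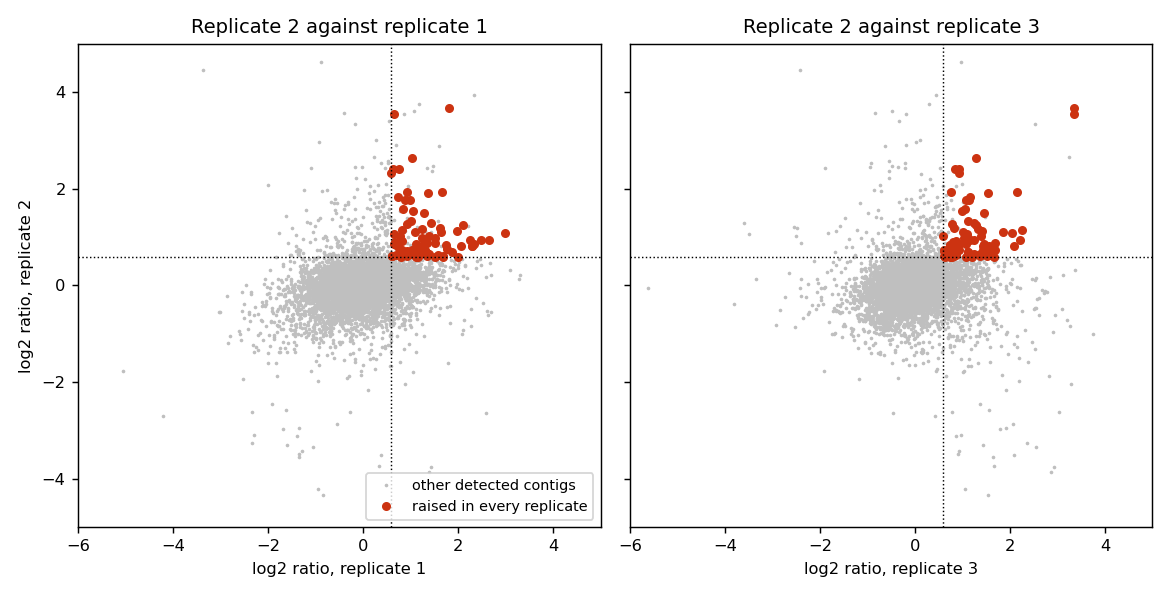
Log2 ratio of nicotine over control diet in replicate 2 (y axis) against replicate 1 (left) and replicate 3 (right) for the 7017 detected contigs, with the 80 raised in every replicate in red and dotted lines at the limit of 0.585. Most red points lie low on the y axis, where the median was 0.86, and a few reach above 2 in replicate 2 with ratios near the limit in replicate 1.

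By their order over replicates the 80 fell into unlike profiles. Replicate 2 held the lowest ratio in 41 contigs and the highest in 21. Replicate 1 held the highest ratio in 43 and replicate 3 in 16. These orders were not counted over all detected contigs. Their ratios were also narrowest in replicate 2, with quartiles of -0.22 and 0.20. The quartiles were -0.42 and 0.35 in replicate 1 and -0.36 and 0.31 in replicate 3. Of the 117 lowered contigs, 62 had their smallest change in replicate 2, so small ratios there were not particular to the 80. In 5 contigs, picked out after their values were seen, replicate 2 was at least 1 above both others. These were contig3677, contig3678, contig4715, contig8694 and contig6628. Contig4715 lay at 0.63, 2.42 and 0.85, contig8694 at 0.76, 2.42 and 0.92 and contig3678 at 0.59, 2.32 and 0.94, so that these 3 had nearly the same values. Since replicate 1 alone has its dyes reversed, an order that sets replicate 1 apart and a dye effect on a probe cannot be told apart.

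The levels behind the ratios showed a second feature of the set. On control diet, with each array centred on the median of the detected contigs, 69 of the 80 contigs (86.2%) had their highest level in replicate 1. Among all 7017 detected contigs that share was 31.3%. The control level of the 80 had a median of -0.54, -1.14 and -1.34 in replicates 1, 2 and 3, relative to the detected contigs. The difference of replicate 1 from the mean of replicates 2 and 3 had a median of 0.73 on the log2 scale, with a lower quartile of 0.44, against -0.07 over all detected contigs. Contigs higher on nicotine diet in every replicate thus mostly also had more signal in replicate 1 than in the others on the diet without nicotine. The control RNA of replicate 1 carried Alexa Fluor 647 and that of replicates 2 and 3 Alexa Fluor 555, so these levels are compared across dyes.

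On nicotine diet replicate 1 was again the highest, in 64 of the 80 (80%) against 29% of the detected contigs, with a median difference of 0.93. For the 117 lowered contigs the order was turned, with 5 (4.27%) highest in replicate 1 on control diet and a median difference of -0.55. For the contigs raised in replicates 1 and 3 only, 54.8% were highest in replicate 1 on control diet and the median difference was 0.17. On nicotine diet 530 of those 621 (85.3%) were highest in replicate 1, with a median difference of 0.77. The excess in replicate 1 on nicotine diet was thus not particular to the 80. The rule took ratios within arrays and did not compare levels between replicates, but each ratio contains the control level, so these shares are given with no test. What set replicate 1 apart was not tested. Within a diet, the replicate and its dye cannot be told apart in these levels. The dyes of replicate 1 were opposite between the diets. Its median differences had the same sign on both, at 0.73 and 0.93 for the 80 and -0.55 and -0.87 for the lowered contigs (control, then nicotine diet). With Agilent's processed signals in place of these levels, 71 of the 80 were highest in replicate 1 on control diet, against 41.6% of the detected contigs. Of the lowered contigs, 20 of 117 (17.1%) were then highest there, with a median difference of -0.32.

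**Figure D4:**
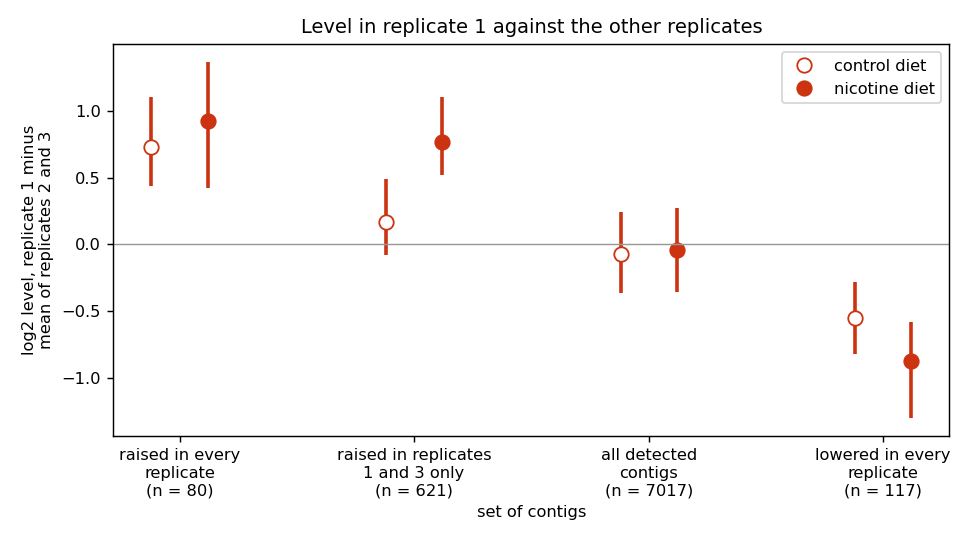
Difference in log2 level between replicate 1 and the mean of replicates 2 and 3 (y axis) on control diet (open) and nicotine diet (filled) for 4 sets of contigs (x axis). Circles are medians over contigs and lines run between the quartiles. The contigs raised in every replicate lie at 0.73 on control diet and 0.93 on nicotine diet, and those lowered in every replicate at -0.55 and -0.87.

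For 38 of the 80 contigs the nicotine level in every replicate was above the control level of every replicate. The rule asked for a higher nicotine signal in each replicate, so such a separation is favoured by the choice itself. It was not counted over all detected contigs. For the other contigs the ratio within each array was above the limit while the levels of the 2 diets overlapped between replicates. Contig4203 is an example, with control levels of 11.41, 9.21 and 9.90 and nicotine levels of 13.91, 10.18 and 12.11 in replicates 1, 2 and 3. In it the control level of replicate 1 was higher than the nicotine level of replicate 2. The nicotine level varied more between replicates than the control level in 55 of the 80 (68.8%), where the share among detected contigs was 62.7%.

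A control signal well above background on all 4 arrays was found for 72 of the 80 contigs (90%), against 98.4% of the detected contigs. The rule asked for detection on nicotine diet and for a lower control signal, so a lower share is favoured by the choice itself. The other 8 were contig3265, contig3427, contig15032, contig3321, contig2399, contig6036, contig5627 and contig2477, named here for that reason. They include the 4 contigs of highest mean ratio, and a dim control signal goes with a high ratio by construction. Contig6036 was measured in the control channel on 1 array only. The control channel was not well above background in replicate 3 for 6 of the 8 and in replicate 2 for 4.

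Of the 80 contigs, 39 had a second probe on the array, and for 16 of them both probes were kept. In those 16 the means of the 2 probes differed by 0.03 to 0.49, with a median of 0.14. In the other 23 the second probe was not kept, although its mean ratio was above 0 in all 23, with a median of 0.75. It was above 0 in each replicate for 21 of them. In 4 of the 23 the second probe was not well above background on every array, and in 1 of these it was above the limit throughout. The 2 probes of a contig share their RNA and the choice of the contig, so they do not count as separate evidence.

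The exceptions were contig1633 and contig3432. The kept probe of contig1633 lay at 1.63, 1.18 and 0.82 and its other probe at 0.10, 0.48 and -0.34, with a mean of 0.08. Both probes were detected on nicotine diet on all 4 arrays, and the other probe was the brighter, with a mean nicotine level of 13.75 against 11.11. The kept probe of contig3432 lay at 0.92, 0.71 and 0.61, and its other probe at 0.49 and 0.65 in replicates 1 and 2 and just below 0 in replicate 3. Here too the other probe was the brighter, at 15.89 against 14.17. The probes of these 2 contigs thus did not give one answer. In contig3427, contig3678, contig3616, contig777, contig3282, contig2047 and contig1162, picked out after their values were seen, the probe that was not kept was also the brighter.

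Spots of the set were spread over the array, from row 5 to row 192 of 192 and from column 3 to column 81 of 82. None carried an outlier flag on any array.

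Some members had neighbouring identifiers, a feature that the rule did not use. A contig next in number was also in the set for 11 of the 80 (13.8%), while 120 of the 7017 detected contigs (1.71%) were numbered next to a member. Among the 117 lowered contigs, 2 (1.71%) were next in number to another lowered one. The 11 were contig426 with contig427, contig497 with contig498, contig3616 with contig3617, contig3677 with contig3678, and contig4203 with contig4204 and contig4205. What the order of numbers means is not given in the sources used here, and no sequences were at hand to compare.

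Some of these neighbours had like profiles and some did not. Contig4203, contig4204 and contig4205 lay at 2.49, 1.51 and 1.99 in replicate 1, at 0.94, 0.87 and 0.59 in replicate 2, and at 2.21, 1.68 and 1.66 in replicate 3, with replicate 2 the lowest in all of them. Contig3677 and contig3678 shared a high value in replicate 2, of 2.64 and 2.32. Contig3616 at 1.87, 0.68 and 1.12 and contig3617 at 0.76, 0.77 and 0.74 had unlike profiles.

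Contigs numbered next to a member, but outside the set, also leaned upward. Of 109 such detected contigs, 31 (28.4%) were above 0 in every replicate and 21 (19.3%) below 0 in every replicate. Of the other 6828 detected contigs, 19.6% were above 0 and 26.1% below 0 in every replicate. The median mean ratio was 0.09 for the neighbours and -0.04 for the others. The lean was thus small for most, and a few neighbours were far higher.

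The 6 neighbours of highest mean ratio were picked out after their values were seen. Contig3426, next to contig3427, was at -0.16, 3.35 and 2.52 in replicates 1, 2 and 3. Contig3320, next to contig3321, was at 0.22, 2.66 and 3.24. In both, replicate 1 kept the contig out of the set while replicates 2 and 3 were well above the limit.

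Contig3676, next to contig3677, was at 0.47, 2.43 and 0.53, and contig3264, next to contig3265, at 0.32, 1.62 and 0.66. Contig3627, next to contig3626, was at 1.44, 0.53 and 1.36, and contig4673, next to contig4674, at 0.45, 1.71 and 0.65. On the other side, contig3428 lay at 1.25, 0.20 and 0.68 and contig3679 at 0.68, 0.43 and 0.46, so the likeness did not reach every neighbour.

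**Figure D5:**
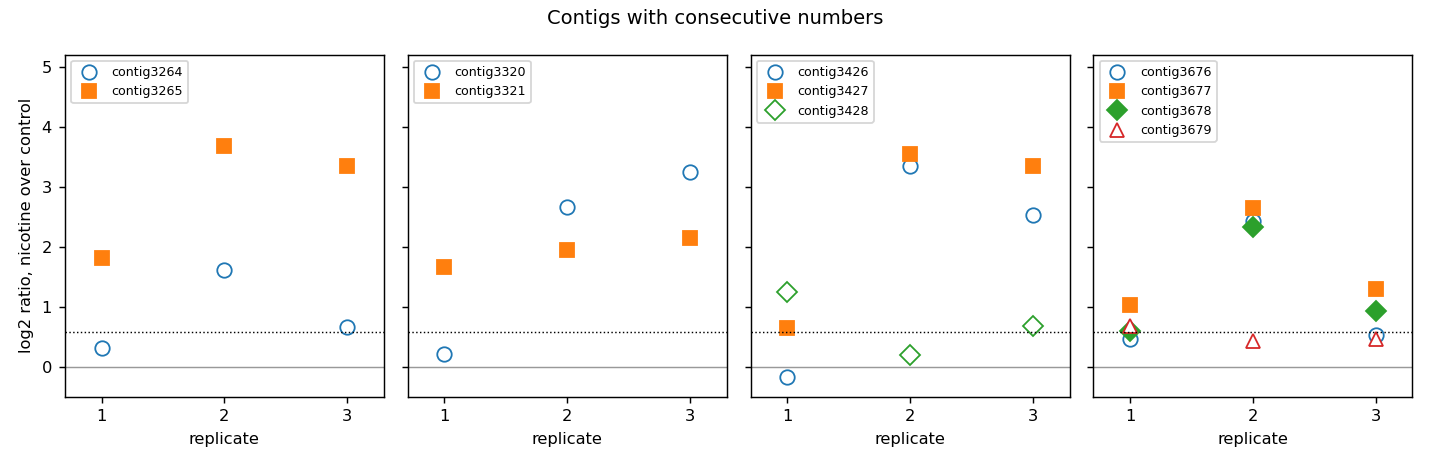
Log2 ratio of nicotine over control diet (y axis) in each of 3 replicates (x axis) for 4 runs of contigs with consecutive numbers, with members of the set filled and other contigs open, and a dotted line at the limit of 0.585. In replicate 2 contig3426 and contig3427 reach 3.35 and 3.55, and contig3676, contig3677 and contig3678 reach 2.43, 2.64 and 2.32, while contig3428 and contig3679 stay at 0.20 and 0.43.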

How the data were processed

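RNA of both diets was hybridised on 4 two-colour Agilent arrays from 1 slide. Per the file headers, Agilent Feature Extraction 10.1.1.1 gave median spot and background intensity per channel, processed intensity and a log10 ratio (red to green). The deposited value table holds log2 ratios of red over green. Scale and direction were taken from each array's correlation with its scanner ratio (r from 0.959 to 0.969), and its steps are not given beyond limma, per the submitters' processing notes. The exact centring by the authors stays unknown, with column medians between -0.03 and -0.00. Ratios of arrays 1 and 3 were turned to nicotine over control and averaged, following the titles; the description of array 4 instead calls it a technical replicate. The titles call the replicates biological, but no label names separate cultures, so p-values and spreads measure only these samples and may be technical.

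Levels per diet were made in limma 3.58.1 under R 4.3.3 from spot medians by normexp (offset 50), loess within arrays and Aquantile between arrays. limma's moderated test had a dye term and Benjamini-Hochberg adjustment over 12503 probes, after 98 probes with outlier flags and 2072 dim probes (well above background on fewer than 3 arrays, some of them in both classes) were left out. It was tested on simulated data. The members and all lists were chosen with earlier results of these data known. Named contigs are the 10 of highest mean, the 4 of smallest SD, the 4 of highest nicotine level, the 3 on either side of the limit and those whose other probe lay at or below 0 in a replicate, and further names are marked as picked later. The precision is limited by the number of arrays. Python 3.11.15 with matplotlib 3.10.9 drew the figures.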

Additional observations from a re-analysis of the deposited data

How the results depend on the processing

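The set of 80 contigs held 14 with a limit of 1 in each replicate (median mean ratio 1.48), one more than counted above because a less bright probe then stands for its contig. It ranged from 82 to 701 with an array or replicate left out: 135, 701 and 137 for omission of replicates 1, 2 and 3, as fewer replicates must pass by construction. The median ratio then ranged from 0.99 to 1.17. Under the other settings the count stayed within 1.5 times of 80: 92 with Agilent's processed ratio (75 of the 80 among them), 79 with own normexp and loess ratios (78 shared), 72 with both channels well above background, 96 with no filter on dim probes, 58 with every probe of a contig required and 104 when array 4 stood as the repeat of array 1 (78 shared). That pairing raised limma's count of probes from 0 to 1752, where arrays 1 and 3 count as separate samples; the cause was not tested further. The other 7 limma settings called 0. Of the 58 contigs left when every probe was required, 41 have 1 probe on the array and could not fail that setting. Mean ratios of the 22 members named by rule kept their sign under the 6 alternatives run for them (both probes averaged covers 12), which for left-out replicates the rule fixes. The 3 contigs just outside the limit were not rerun. Mean ratios of the named members moved by more than the SD between replicates for 4 of 22 with Agilent's ratio and for 3 of 12 with both probes averaged. The comparison with Agilent's processed signals of the highest level in replicate 1 was chosen after seeing the data. The weak detection on array 2 (73.7% in the nicotine channel) and the dim control signal of 8 members limit the ratios.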
